A study of Mus musculus with 11 samples.

Results

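The 10 genes described here encode a signalling route from the cell surface to the nucleus. They are the gp130 receptor chains Il6st, Il6ra and Osmr, the transcription factors Stat3, Stat5a and Stat5b, and the feedback inhibitors Socs1, Socs2, Socs3 and Cish. They were chosen by gene name and all 10 had values, among 19170 genes with values of 55414 listed. Of the 10, only Socs3 passed the test between the groups, with an adjusted p under 0.1: its mean was 581 ± 454 normalized counts (SD, n = 5) in PBS-treated and 1414 ± 346 (SD, n = 6) in DT-treated mice. The other 9 had log2 fold changes between -0.18 and 0.24 and did not pass.

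IL-6 and its relatives bind receptors that share the chain gp130, the product of Il6st. Janus kinases (JAKs) bound to the receptor then phosphorylate STAT proteins, which pair, enter the nucleus and switch on genes. Among those genes are Socs3 and Cish, whose proteins bind the receptor or the kinase and damp the signal. In stratified epithelia this route is known for its part in wound repair and barrier upkeep. The assay measured transcripts, so phosphorylation of STAT proteins was not measured.

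The gingival epithelium, the lining of the gum, was profiled by RNA sequencing in 5 mice given PBS and 6 given diphtheria toxin (DT). All 11 carried langerin-DTR, which places the diphtheria toxin receptor in langerin-expressing cells, so that DT kills Langerhans cells, the antigen-presenting cells of the epithelium. The study's results section gives injections at 17, 24 and 31 days of age, and its methods name male animals. The study's reporting summary instead states that its findings hold for both sexes, with groups matched by sex. Tissue was taken at 8 weeks of age, weeks after the last injection. By flow cytometry the study found Langerhans cells gone during weaning and back at normal frequencies by that age. The receptor acts in any langerin-expressing cell, and mice that lacked the receptor but received DT were not among the groups used here. The question addressed is how removal of these cells around weaning changes the adult epithelium. Nothing in the labels says whether the mice of a group came from separate litters. The p-values set the group differences against the spread between these mice only. The index numbers that end the sample titles are all lower in the PBS group. Any order of handling that followed them cannot be told apart from treatment.

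Between 17509328 and 24325513 reads were counted per mouse, and the groups did not differ in depth beyond their spread (two-sided exact permutation p = 0.496, n = 5 and 6). Keratinocyte markers summed to between 1828890 and 2087630 normalized counts per mouse across both groups, in accord with the tissue label. Cd207, which encodes langerin, had a mean of 23.9 normalized counts in PBS-treated and 18.4 in DT-treated mice (log2 fold change -0.19, SE 0.30, limma adjusted p = 0.853). In bulk tissue, fewer cells of a type and less RNA per cell cannot be told apart. All 7 genes of the Langerhans list and all 6 of the general leukocyte list had negative fold changes, and none passed the test. The leukocyte score, the mean log2 difference of the 6 genes from their all-mouse means, lay between -0.25 and 1.00 in the PBS-treated and between -0.90 and 0.37 in the DT-treated mice (exact permutation p = 0.117, n = 5 and 6). PBS 3 and PBS 5 stood apart, with leukocyte scores of 1.00 and 0.65 and scores over the Langerhans list of 0.88 and 0.68, while the leukocyte scores of PBS 1, PBS 2 and PBS 4 (-0.25, 0.18 and -0.20) lay within the DT range. Without PBS 3 and PBS 5 together, the Socs3 log2 fold change was 1.14 (limma adjusted p = 0.0479), and 1967 genes were called in place of 107.

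The promoters of Socs3 and Cish are shown because they are the only ones, of the 9 members matched in the RefSeq table, that hold the STAT motif TTCNNNGAA within 250 bases before to 50 after the start. Socs2 was not matched. The motif, which reads the same on both strands, was in 2726 of 32851 promoter windows of this length, or 8.30%. The Socs3 window lies at chr11:117969317-117969616 on the minus strand, with the motif beginning 154 bases before the start. The Cish window lies at chr9:107296409-107296708 on the plus strand, with one copy at the start site and another 11 bases after it. Both are given 5′ to 3′ on GRCm38.p6, with the motif in capitals. A match of letters is a description and not a binding site.
Socs3: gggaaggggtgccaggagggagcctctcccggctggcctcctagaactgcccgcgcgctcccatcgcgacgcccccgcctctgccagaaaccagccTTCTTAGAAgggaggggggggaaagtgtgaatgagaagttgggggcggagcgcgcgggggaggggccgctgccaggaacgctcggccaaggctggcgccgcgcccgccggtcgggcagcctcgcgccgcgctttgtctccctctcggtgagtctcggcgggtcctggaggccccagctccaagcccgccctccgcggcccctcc
Cish: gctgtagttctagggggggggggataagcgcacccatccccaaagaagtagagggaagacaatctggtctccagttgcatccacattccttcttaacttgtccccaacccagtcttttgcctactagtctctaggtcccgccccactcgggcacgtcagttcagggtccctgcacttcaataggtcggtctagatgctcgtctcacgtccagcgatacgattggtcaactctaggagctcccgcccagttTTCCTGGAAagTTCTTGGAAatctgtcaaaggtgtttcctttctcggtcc
The AP-1 motif TGANTCA, searched in the same windows on both strands, was in 7.81% of all promoters and in 1 window of the members, that of Osmr.

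Of these 2 genes Socs3 passed the test, as given above, and Cish did not. Cish had means of 884 ± 121 (SD, n = 5) and 853 ± 89.1 normalized counts (SD, n = 6). The plot of the 10 genes by mouse sets these beside the rest.

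**Figure D1:**
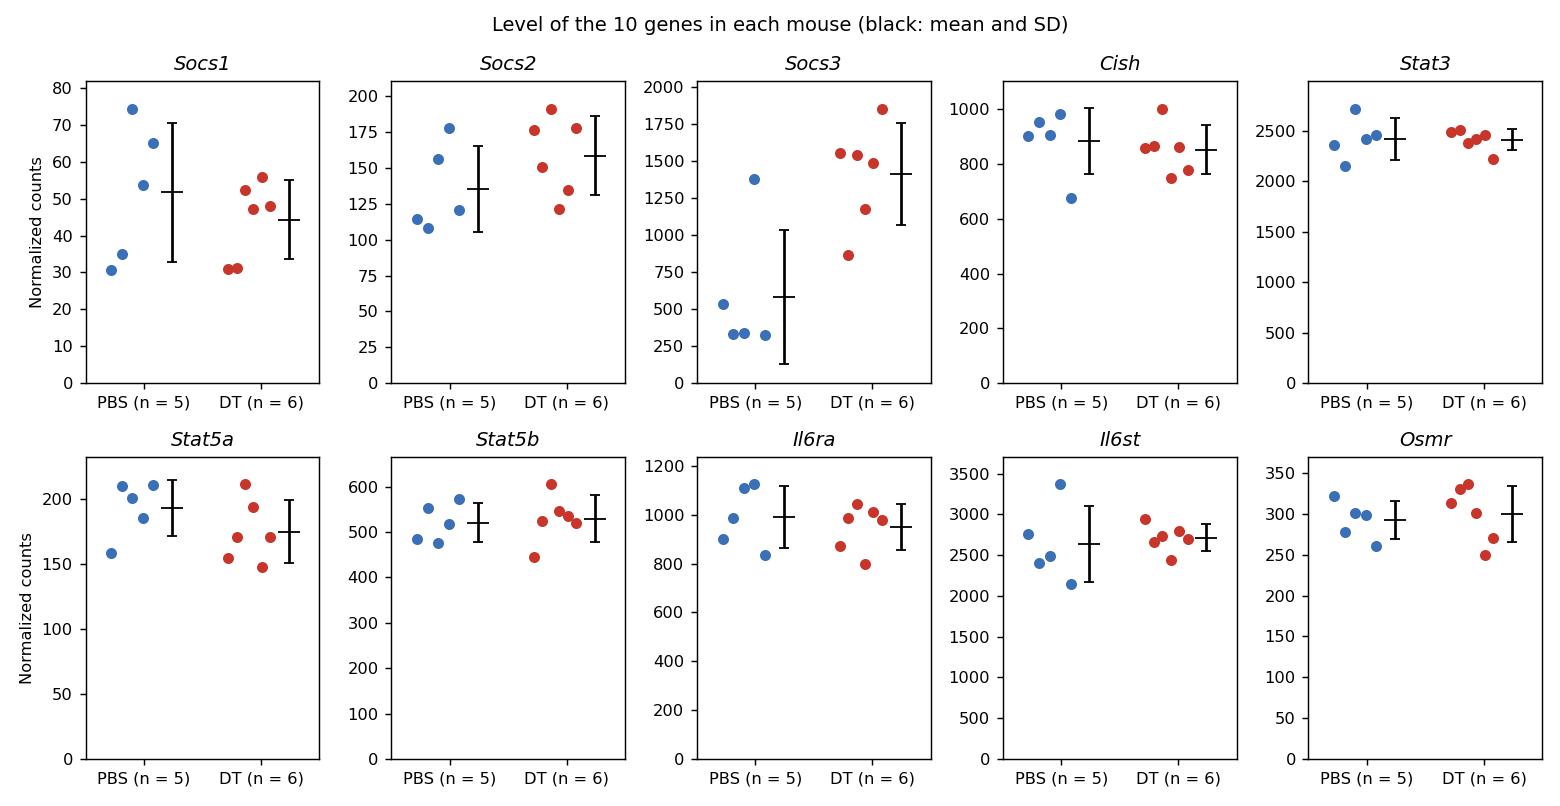
Normalized counts (vertical axes, from 0) of each of the 10 genes in each of 5 PBS-treated (blue) and 6 DT-treated (red) mice, with the mean and SD in black. In Socs3 the DT-treated mice lie between 864 and 1855 and 4 of the 5 PBS-treated mice lie at or below 535, while in the other genes the groups overlap widely.

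Socs3 encodes the inhibitor that binds gp130 and its JAKs. In the PBS-treated mice its level was 535, 329, 337, 1378 and 326 normalized counts in mice 1 to 5. In the DT-treated mice it was 1557, 864, 1541, 1173, 1490.4 and 1855 in mice 1 to 6. PBS 4 thus lay above DT 2 and DT 4, so the groups overlapped, while 4 of 6 DT-treated mice lay above every PBS-treated mouse and 6 of 6 above the PBS mean. The fold change was 2.83 (95% interval 1.80 to 4.44), or 1.50 on the log2 scale (SE 0.31). With limma and Benjamini-Hochberg adjustment over 19170 genes the adjusted p was 0.061 (unadjusted p = 0.000169, rank 53). Over all genes, 0.558% were called at this threshold and 0.313% were called higher, so that 1 of 10 members is a count on a single gene. The gene lies on chromosome 11 (117966079 to 117970047, minus strand, GRCm38).

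The call on Socs3 stood close to its threshold. The log2 fold change stayed between 1.36 and 1.88 when each mouse in turn was left out, but the adjusted p passed 0.1 without PBS 1 (0.133), PBS 2 (0.170), PBS 3 (0.106), DT 1 (0.120), DT 3 (0.115), DT 4 (0.104), DT 5 (0.170) or DT 6 (0.155). Without PBS 4 the log2 fold change was 1.88 and the adjusted p 0.000108. Without the intensity trend in limma the adjusted p was 0.261. Socs3 also varied much between mice of a group: its coefficient of variation was 78.1% after PBS and 24.4% after DT. The value after PBS includes PBS 4, at 1378 normalized counts against 326 to 535 in the other PBS-treated mice. Among 2402 genes with a mean within 1.5-fold of that of Socs3, the median coefficients were 8.29% and 5.38%.

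Socs3 ran with the immediate early genes, the transcription factors and regulators (Fos, Jun, Egr1 and others) that cells switch on within minutes of a stimulus. Of 21 such genes 13 were called higher after DT and 0 lower, and 20 had a positive fold change, with a median log2 fold change of 0.76 against -0.01 over all genes. The list was chosen with earlier results of these data known, so these counts are a description. Atf3 had means of 258 and 1370 normalized counts (log2 fold change 2.68, SE 0.41, limma adjusted p = 0.00926) and Fos of 4857 and 14227 (1.70, SE 0.26, adjusted p = 0.00897). Ier2, a regulator of the same class, had means of 2694 and 4533 (0.75, SE 0.091, adjusted p = 0.00477). Junb rose from 6283 to 10021 (log2 fold change 0.68, SE 0.093), Egr1 from 4952 to 12889 (1.58, SE 0.29) and Dusp1, a phosphatase of MAP kinases, from 4950 to 9835 (1.02, SE 0.15), with adjusted p of 0.00815, 0.0375 and 0.00832. Btg2, an inhibitor of cell division, had means of 2787 and 4684 (0.76, SE 0.10). Jun, Jund, Egr2, Zfp36, Klf2 and Klf6 were the remaining called genes, with log2 fold changes from 0.40 to 2.15.

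The immediate early score, the mean log2 difference of these 21 genes from their all-mouse means, was -0.54, -0.72, -0.58, 0.16 and -1.03 in PBS-treated mice 1 to 5. In DT-treated mice 1 to 6 it was 0.45, 0.20, 0.34, 0.30, 0.54 and 0.89. The groups did not overlap, and their means differed by 1.00 (two-sided exact permutation p = 0.00216, the smallest that the splits of the mice allow, n = 5 and 6). Because the list was chosen with earlier results of these data known, this p is a description and not an independent test. PBS 4, the PBS-treated mouse with the high Socs3, also had the highest score of its group and an Atf3 level of 731 against 107 to 170 in the other 4. PBS 5 was lowest and DT 6 highest in both Socs3 and the score. After each group was centred on its mean, Socs3 and the score had a Pearson r of 0.90 over 11 mice, and 0.73 over 10 mice without PBS 4; both measures come from the same libraries, and no test was made.

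**Figure D2:**
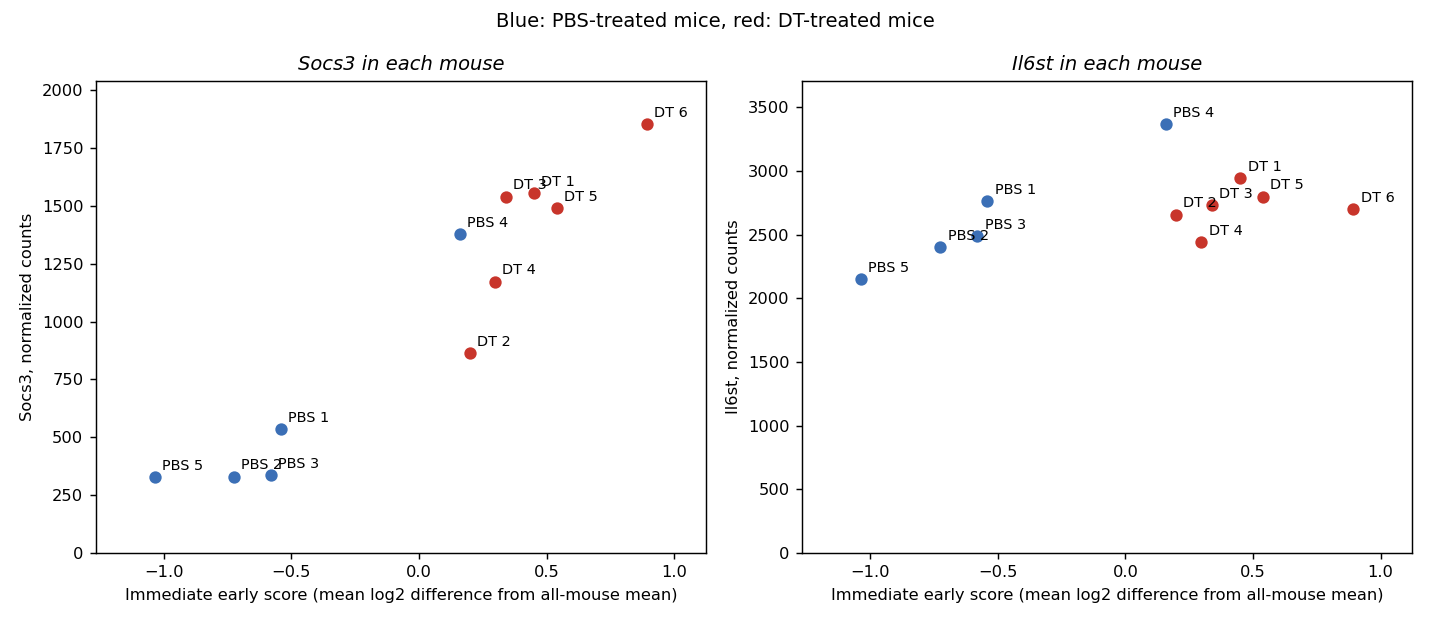
Normalized counts of Socs3 (left) and Il6st (right), vertical axes from 0, against the immediate early score (horizontal axis, mean log2 difference from the all-mouse mean) in each PBS-treated (blue) and DT-treated (red) mouse. Socs3 climbs with the score from PBS 5 (326) to DT 6 (1855), and Il6st is highest in PBS 4 (3370.3).

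With this score as a covariate in limma, the log2 fold change of Socs3 was -0.21 (SE 0.27, adjusted p = 0.758), against 1.50 without it. This fit was planned as an alternative, and because the score does not overlap between groups, the parts of treatment and score in the Socs3 difference cannot be told apart. Among the other members, Il6st had r = 0.82 with the score, Socs2 0.58 and Il6ra 0.55, and without PBS 4 these were 0.56, 0.29 and 0.37. Cish had 0.38, and 0.21 without PBS 4. Stat5a (-0.36) and Stat5b (-0.29) had negative values, and without PBS 4 these were -0.44 and -0.43. Osmr (-0.07), Socs1 (0.09) and Stat3 (-0.18) had values nearer 0, and without PBS 4 these were -0.21, 0.0054 and -0.28.

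Il6st, the shared chain gp130, was one of the most abundant members. Its level was 2761, 2405, 2488, 3370.3 and 2149.9 normalized counts in PBS-treated mice 1 to 5, and 2947, 2658, 2733, 2439, 2798 and 2701 in DT-treated mice 1 to 6. All DT-treated mice lay inside the range of the PBS-treated mice. The gene lies on chromosome 13 (112464070 to 112510086, plus strand). The log2 fold change was 0.06 (SE 0.089, limma adjusted p = 0.856), with a 95% interval of -0.13 to 0.25.

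Il6ra encodes the chain that gives cells their binding to IL-6. It was measured at 903, 987, 1108, 1126 and 834 normalized counts after PBS and at 871, 988, 1045, 798, 1012 and 980.1 after DT, so that the groups overlapped. The log2 fold change was -0.06 (SE 0.087). Osmr, the partner of gp130 for oncostatin M, was less abundant, at 322, 278, 301, 299 and 261 after PBS and 313, 331, 336, 302, 249 and 270.4 after DT. Its log2 fold change was 0.03 (SE 0.087), and its groups overlapped as well. Il6ra lies on chromosome 3 (89864059 to 89913196, minus strand), where its exons overlap the antisense Gm42809 (mean 3.05 normalized counts), and Osmr on chromosome 15 (6813577 to 6874969, minus strand).

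The ligands for which these receptors are named were near 0. Il6 and Il27 were listed without a value, and Osm, encoding oncostatin M, had means of 3.23 and 3.17 normalized counts after PBS and DT. Lif, encoding leukaemia inhibitory factor, had means of 60.9 and 54.5, and Il11 of 12.1 and 13.99. Of 8 listed ligands with values, 0 passed the test. Of the other gp130 receptors, Lifr, encoding the receptor of leukaemia inhibitory factor, had means of 255 and 218 (log2 fold change -0.23, SE 0.085, limma adjusted p = 0.300), and Il11ra1 of 73.5 and 75.2 (0.03, SE 0.12).

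Stat3, the main STAT below gp130, had the smallest standard error of the members. It was measured at 2361.5, 2149, 2723, 2417 and 2463 normalized counts after PBS and at 2492, 2507, 2384, 2423, 2456 and 2222 after DT. The difference was below the spread between mice, with a log2 fold change of -0.0021 (SE 0.057) and a 95% interval of -0.12 to 0.12. Its sign turned under several other settings.

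Stat5a and Stat5b encode closely related STATs used by growth hormone, prolactin and many cytokines. Stat5a was measured at 158, 209.9, 201, 186 and 211 normalized counts after PBS and at 155, 171, 212, 194, 148 and 171 after DT (log2 fold change -0.15, SE 0.11). Stat5b was measured at 485, 554, 475, 517 and 573 after PBS and at 445, 525, 605, 545, 535 and 519.8 after DT (0.02, SE 0.076). Both overlapped between the groups, with limma adjusted p of 0.643 and 0.948. The 3 STAT members are neighbours on chromosome 11, where Stat5b spans 100780731 to 100850724 (minus strand), Stat5a 100859351 to 100885169 (plus) and Stat3 100885098 to 100939540 (minus). There 8626 bases separate Stat5b from Stat5a, and Stat5a and Stat3 share 72 exonic bases on opposite strands. The strand setting of the counting is not given in the sources used here, and reads of the shared bases, like reads alike between Stat5a and Stat5b, could be assigned to either or dropped.

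Cish encodes CIS, an inhibitor that acts on receptors using STAT5. It was measured at 904, 952, 906, 983 and 677 normalized counts after PBS and at 859.7, 867, 1003, 748, 863 and 777 after DT. The groups overlapped, and PBS 5 lay apart from its group. The log2 fold change was -0.05 (SE 0.093, limma adjusted p = 0.892). Cish lies on chromosome 9 (107296026 to 107302784, plus strand). Antisense transcripts Gm17040 and Gm17041 overlap its exons, with means of 1.74 and 2.71 normalized counts.

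Socs2, a brake on growth hormone signalling, was at 114, 108, 156, 178 and 121 normalized counts after PBS and at 177, 150.4, 191, 121, 134 and 178 after DT. After Socs3 it had the largest positive log2 fold change of the members, 0.24 (SE 0.15, 95% interval -0.08 to 0.55, limma adjusted p = 0.572), and the groups overlapped. Socs1, an inhibitor of JAKs in interferon signalling, was the least abundant in total, at 30.6, 35.0, 74.4, 53.7 and 65.1 after PBS and 30.9, 31.3, 52.4, 47.2, 55.9 and 48.1 after DT. Its log2 fold change was -0.18 (SE 0.24, 95% interval -0.69 to 0.33). With 27 to 74 reads per mouse, the counting error of a single mouse was 14.4%, and the difference lay within the spread between mice. Socs2 lies on chromosome 10 (95385362 to 95417180) and Socs1 on chromosome 16 (10782240 to 10785536), both on the minus strand. Of the 10 members 5 had positive and 5 negative log2 fold changes, with a median of 0.0093 against -0.01 over all genes.

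Of the 10 members, 0 had groups without overlap, against 2.11% of the 13477 genes that averaged 10 or more normalized counts. The plot of fold changes shows the members with their intervals beside other genes of the pathway.

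**Figure D3:**
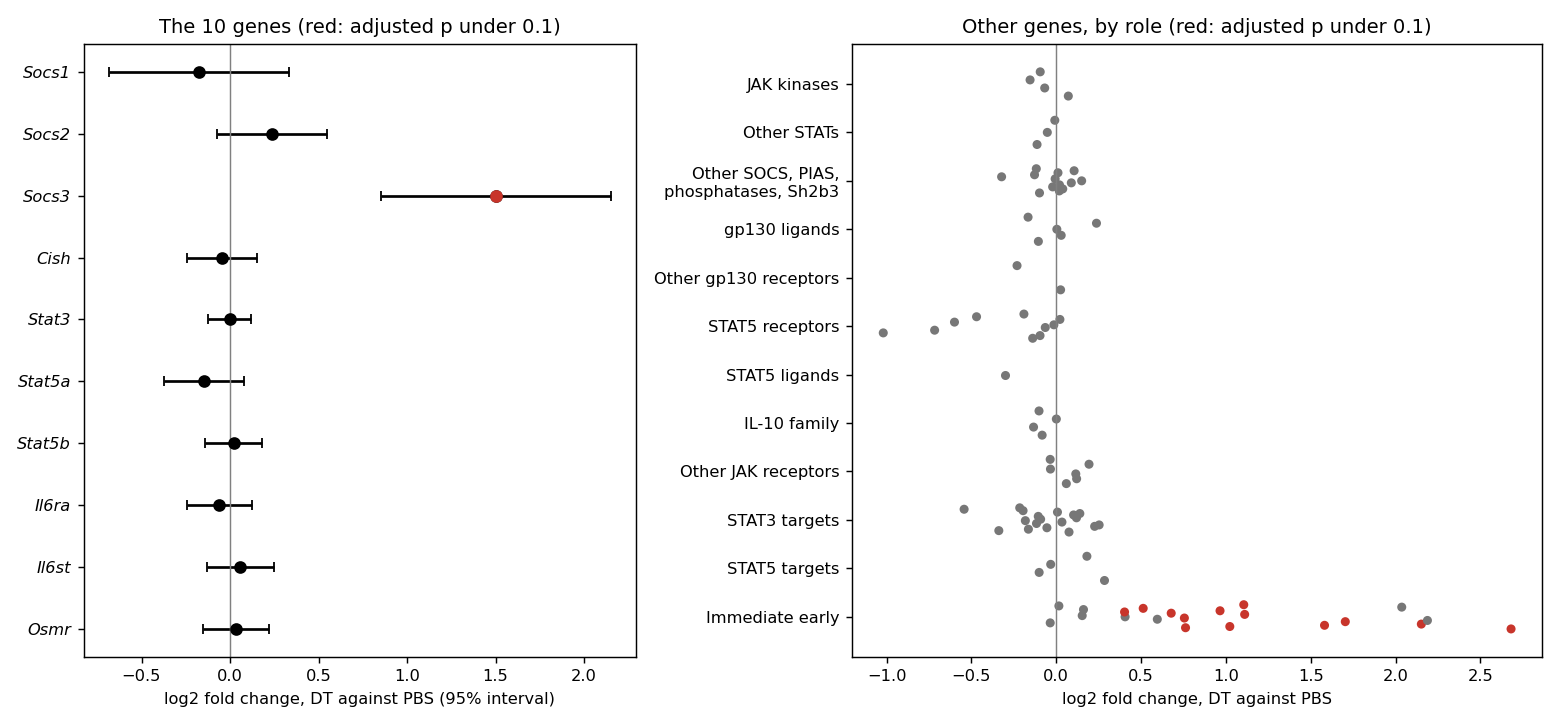
Left, log2 fold change (DT against PBS, horizontal axis) of the 10 genes with 95% intervals from limma. Right, log2 fold change of each other gene averaging 10 or more normalized counts, by role, each point a gene; red marks an adjusted p under 0.1, which Socs3 (1.50) and 13 immediate early genes reach.

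The 7 ratios of members were taken within each mouse, since a ratio does not depend on the scaling of a library. Socs3 relative to its inducer Stat3 was 12.4% to 57.0% (median 15.4%) after PBS and 34.5% to 83.5% (median 61.6%) after DT. On the log2 scale the difference was 1.50, and 6 of 6 DT-treated mice lay above the PBS mean (two-sided exact permutation p = 0.0108, adjusted over 7 ratios p = 0.0379, n = 5 and 6). Socs1 relative to Socs3 was 3.97% to 22.3% after PBS and 2.05% to 4.11% after DT, a log2 difference of -1.68 (exact permutation p = 0.00433, adjusted p = 0.0303, n = 5 and 6), with 6 of 6 below the PBS mean. Both rest on the Socs3 values already given. Both lost the threshold of 0.05 without PBS 2, PBS 3, PBS 5 or any DT-treated mouse, where the adjusted p was 0.05 to 0.0833; with 5 against 5 mice the smallest unadjusted p is 0.00794.

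The other 5 ratios did not pass. Stat5a relative to Stat5b was 32.8% to 42.5% after PBS and 27.8% to 35.7% after DT (log2 difference -0.17, exact permutation p = 0.0628, adjusted p = 0.146, n = 5 and 6), and 6 of 6 DT-treated mice lay below the PBS mean. Without PBS 1 the difference was -0.21 and the adjusted p 0.0333. Socs2 relative to both STAT5 genes differed by 0.26 (adjusted p = 0.382 by exact permutation) and Cish relative to them by -0.02 (adjusted p = 0.874 by exact permutation). Il6ra relative to Il6st differed by -0.12 and Osmr relative to Il6st by -0.02.

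Levels between genes were compared as normalized counts per kilobase of exon. After PBS, Stat3 led with 254 ± 21.7 (SD, n = 5), followed by Il6st with 237 ± 41.9 and Socs3 with 201 ± 157. After DT, Socs3 led with 489 ± 120 (SD, n = 6), followed by Stat3 with 253 and Il6st with 244. Socs3 was above Stat3 in 1 of 5 PBS-treated and 6 of 6 DT-treated mice. Among the PBS-treated mice it was above Cish in 3 of 5, with 477 per kilobase in PBS 4 against 113 to 185 in the rest. Stat3 and Il6st did not differ beyond their spread: Stat3 was the higher in 3 of 5 and 4 of 6 mice.

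Cish (138 after PBS, 133 after DT), Il6ra (115 and 109.8) and Stat5b (94.0 and 95.5 per kilobase) formed the middle of the order. Cish was above Il6ra in all 11 mice, and Il6ra above Stat5b in 4 of 5 and 5 of 6. Stat5a, Osmr, Socs1 and Socs2 lay lowest, between 14.2 and 27.1 after PBS and between 15.2 and 24.8 after DT. Stat5a and Osmr could not be ranked, with Stat5a the higher in 4 of 5 PBS-treated and Osmr in 2 of 6 DT-treated mice, and neither could Socs1 and Socs2. The exon length used is the union over all transcripts of a gene. The study's methods name trimming meant for 3′ tag reads and the labels a whole-transcript kit, and for 3′ tags a level per length would understate long genes.

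**Figure D4:**
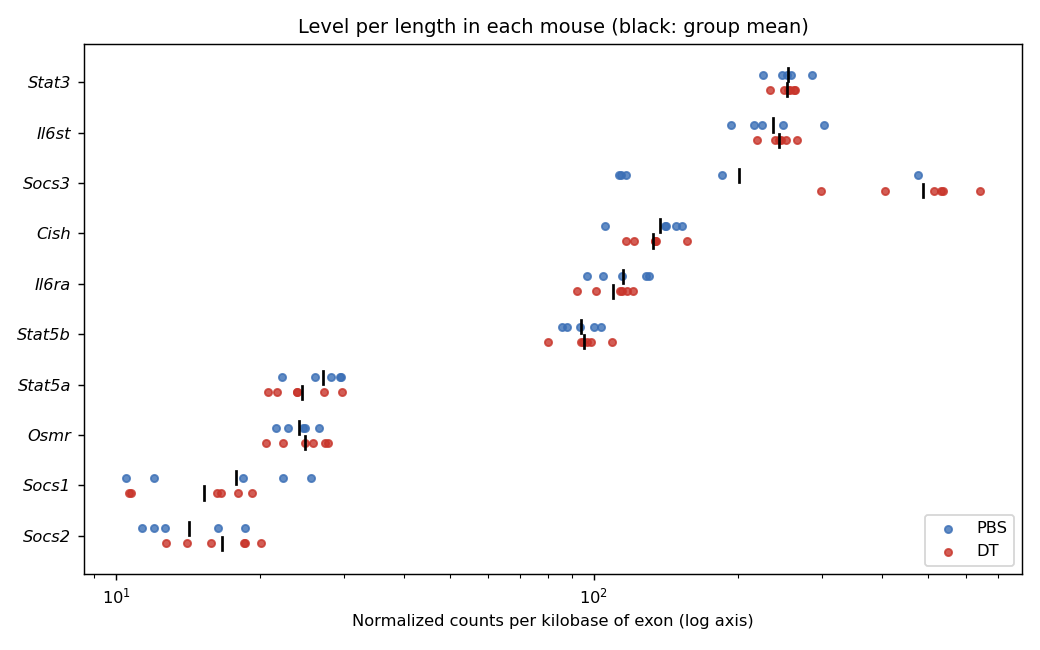
Normalized counts per kilobase of exon (horizontal axis, log scale) of the 10 genes in each PBS-treated (blue) and DT-treated (red) mouse, with group means in black. Socs3 moves from below Stat3 and Il6st after PBS (mean 201, with PBS 4 at 477) to the highest after DT (mean 489), and the remaining order is nearly the same.

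The members were compared with each other over the 11 mice after each group was centred on its mean, as a description without a test. Of 45 pairs 30 had a Pearson r above 0, with a median of 0.12. The highest was that of Socs3 and Il6st (0.86), which was 0.60 without PBS 4. Cish and Il6ra had r = 0.73, Stat5a and Stat5b 0.69 and Socs2 and Il6ra 0.65, and without PBS 4 these were 0.69, 0.69 and 0.55. Stat5a and Il6st had the lowest (-0.51). All values of a mouse share a library and its scaling.

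**Figure D5:**
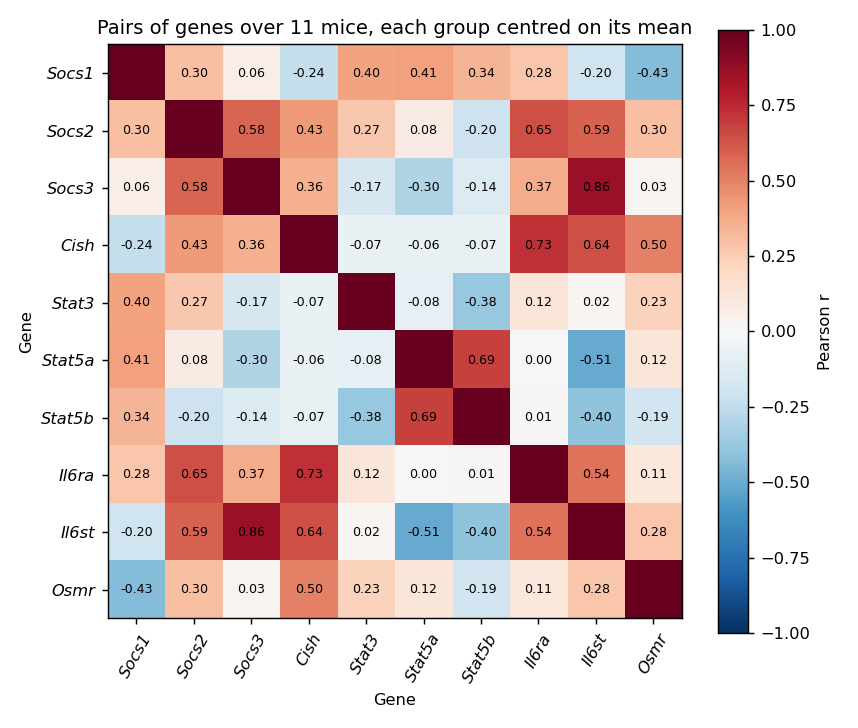
Pearson r (colour and printed value) of each pair of the 10 genes over 11 mice, on the log2 scale with each group centred on its mean; both axes list the genes. The pair of Socs3 and Il6st is highest (0.86) and that of Stat5a and Il6st lowest (-0.51).

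Over 13476 genes averaging 10 or more normalized counts, those most like Socs3 by the same measure were Tns1 (r = 0.96), Yod1 (0.95) and Ccn1 (0.94). Each gene named was picked from 13476 by its r over 11 mice, so a high r can come from the search alone. Without centring, r with Socs3 was 0.59 for Tns1, 0.65 for Yod1 and 0.98 for Ccn1. Ccn1 encodes a secreted matrix protein and Tns1 a protein of focal adhesions. Those most like Il6st were Ubap2l (0.98), Rere (0.97) and Pan3 (0.97), and those most like Stat3 were Kpnb1 (0.94), Htra4 (0.92) and Pcbp3 (0.91). Stat5a was most like Serping1 (0.97), which encodes the complement C1 inhibitor, Smpd2 (0.90) and Gm4755 (0.90). Serping1 averaged 10.4 normalized counts, just above the limit of 10. Stat5b was most like Map6 (0.93), Extl1 (0.92) and Plekhg6 (0.90). Socs1 was most like Tgm1 (0.93), which encodes a transglutaminase of the cornified envelope, Rab35 (0.91) and 1810034E14Rik (0.91).

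Cish was most like Tada2a (0.94) and Mfsd2a (0.93), and Socs2 like Prrc1 (0.92), Oxnad1 (0.91) and R3hcc1l (0.91). Il6ra was most like Tcaf2 (0.92), Sfxn5 (0.91) and Mark2 (0.90). Osmr had the least close likeness, with E230016M11Rik (0.90), Scd3 (0.89) and Card9 (0.88).

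The other genes of the pathway were taken from 11 lists of 107 genes (ligands, receptors, JAKs, STATs, inhibitors and targets), of which 94 had values. None of the 94 passed the limma test at an adjusted p of 0.1, and 14 (14.9%; 5 higher, 9 lower) had an unadjusted p under 0.05, against 11.5% of all genes. Among the 70 that averaged 10 or more normalized counts, 28 showed a positive log2 fold change, with a median of -0.04 against 0.0022 over all 13477 such genes. In 2 of the 70 (2.86%, against 2.11% of all) no mouse of one group reached the other group: 1 was higher and 1 lower after DT.

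Sh2b3, which encodes the adaptor LNK that restrains JAK2 signalling, was the one without overlap on the lower side, with means of 466 ± 60.6 (SD, n = 5) and 370.4 ± 16.4 normalized counts (SD, n = 6). Its log2 fold change was -0.32 (SE 0.077, limma adjusted p = 0.118), the smallest adjusted p of the 94. Il13ra1, a receptor chain for IL-4 and IL-13, was the one on the higher side, with means of 2243 and 2568 (0.19, SE 0.052, limma adjusted p = 0.175). Socs7, an inhibitor of the same family, had means of 824 and 759.6 (log2 fold change -0.12, SE 0.051, limma adjusted p = 0.384). Among further receptors, Ifngr1, a chain of the interferon gamma receptor, had means of 362 and 388, Il10rb, shared by IL-10 and IL-22, of 374 and 338, and Il22ra1, the epithelial chain for IL-22, of 489 and 456. Il22 and Il10 were listed without a value.

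The JAK genes themselves did not pass: Jak1 had means of 3821 and 4009.8 normalized counts (log2 fold change 0.07, SE 0.057) and Tyk2 of 419 and 392 (-0.09, SE 0.065), with limma adjusted p of 0.680 and 0.611. Of the other STATs, Stat2 had means of 283 and 272 and Stat6 of 3226 and 3207, and Stat4 was near 0. Csf2rb, the shared chain of the GM-CSF, IL-3 and IL-5 receptors, had means of 38.9 and 19.6 (log2 fold change -1.02, SE 0.29, limma adjusted p = 0.196). Its near-identical neighbour Csf2rb2 had means of 34.4 and 20.1 (-0.72, SE 0.28, adjusted p = 0.331), and reads of the pair are uncertain. Il15, the one ligand of STAT5-using receptors that averaged 10 or more normalized counts, had means of 87.9 and 72.9 (-0.30, SE 0.17). The leukocyte genes given above had a median log2 fold change of -0.53 without passing, and their part in the Csf2rb values was not tested.

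The STAT target lists held both signs. Of 20 targets of STAT3, 9 had positive and 11 negative log2 fold changes, and of 7 targets of STAT5 with values 2 and 5. Among those averaging 10 or more normalized counts, 8 of 18 STAT3 targets and 2 of 4 STAT5 targets had positive values. Their median log2 fold changes were -0.07 and 0.07. Among the STAT3 targets, Bcl3, a partner of NF-kappaB, had means of 420.0 and 328 normalized counts (log2 fold change -0.34, SE 0.13, limma adjusted p = 0.305). Mcl1, a survival factor, had means of 4304 and 4673 (0.12, SE 0.046, adjusted p = 0.324). Bcl6, a repressor among the STAT5 targets, had means of 815 and 953 (0.28, SE 0.16, adjusted p = 0.521). Ccnd2, a cyclin, had means of 1779.6 and 1659 (-0.10, SE 0.061).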

How the data were processed

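Gingival epithelium of 11 mice was sequenced. The authors used, per the labels, cutadapt 2.10, TopHat2 2.1.1, HTSeq 2.01, DESeq2 1.36.0 and GRCm39, whereas the methods name GRCm38 and other versions. The authors deposited, as other values, reads counted per gene divided by a DESeq2 size factor (normalized counts), with genes of under 10 summed reads left without a value. In every mouse 100% of values were whole multiples of 1 step within 0.02, which gave the reads per mouse.

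Here log2(normalized count + 1) was tested with limma 3.58.1 (R 4.3.3, intensity trend, 11 mice, no covariate), and p-values were adjusted by Benjamini-Hochberg across 19170 genes (called under 0.1). Fold changes are on that scale and understate the change of low genes. The script was tested on simulated data. Single values and ratios used two-sided exact permutation over all splits of the mice. Positions and exon lengths came from GENCODE mouse release 21 by gene ID (19117 of 19170 matched), and promoters from RefSeq.

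Members and lists were chosen with earlier results of these data known. Genes named are the members, each listed gene past the threshold, the 2 genes per role list with the smallest unadjusted p and a mean of at least 10, ligands, receptors and kinases needed to give a level, and the 3 genes most like each member. Stat4, Stat6 and Cd207 were named after their values were seen. Some genes chosen by this rule are not reported here. Alternatives were other pseudocounts, filters, scalings and weights, a replicate block, a covariate, and each mouse left out.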

Additional observations from a re-analysis of the deposited data

Results flagged for a closer look

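Of 34 groups of 5 or 6 mice tested for a mouse far from the rest by Dixon's criterion, 5 held one. Chance alone marks about 1 in 20 of independent groups with normal values. The ratios share genes with the members, so the groups were not independent and this count cannot be set against that rate. Socs3 in PBS 4 was 1378 normalized counts, against 326 to 535 in the other 4 PBS-treated mice. Cish in PBS 5 was 677 normalized counts, against 904 to 983 in the others, and the log2 ratio of Cish to both STAT5 genes in that mouse was -0.21, against 0.32 to 0.49. The log2 ratio of Osmr to Il6st in PBS 4 was -3.49, against -3.11 to -3.04, the mouse in which Il6st was highest. The log2 ratio of Stat5a to Stat5b in DT 5 was -1.84, against -1.61 to -1.48 in the other 5 DT-treated mice.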

How the results depend on the processing

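Of all genes 107 were called, but 4 without the intensity trend (2071 at an unadjusted p under 0.05), 189 with array weights, 1967 without PBS 3 and PBS 5, and 27 to 259 with each mouse left out. Of the members 1 was called, and 0 without the trend, with a replicate block or with the immediate early covariate, and 0 to 1 with a mouse left out. Of the lists 13 genes were called, all immediate early, and 0 without the trend, with the covariate or with the block by library number, 28 without PBS 3 and PBS 5, and 8 to 16 with a mouse left out. Of the 7 ratios 2 passed, and 0 without PBS 3 and PBS 5 (Socs3 to Stat3 1.07, Socs1 to Socs3 -0.98, both adjusted p = 0.125 by exact permutation) and 0 to 3 with a mouse left out.

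Whether mice with the same replicate number in titles or library names were paired is not known. Deviations of same-numbered mice had r of 0.088, 0.172, -0.233 and -0.209 for numbers 1 to 4. For title number 5 r was 0.324, and for library number 6 it was -0.048. These few values of both signs cannot decide it. With the title numbers as a replicate block, which drops DT 6 from the contrast, 35 genes were called and the Socs3 log2 fold change was 1.41 (limma adjusted p = 0.150). With the library numbers, which drops DT 5, 0 genes were called (1404 at an unadjusted p under 0.05) and Socs3 had 1.48 (adjusted p = 0.254). Under the block by title number the smallest two-sided p of the exact permutation within 5 pairs is 0.0625, so 0 ratios could pass 0.05 whatever the data; the Socs3 to Stat3 and Socs1 to Socs3 ratios were 1.39 and -1.62.

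Signs turned only in values that had not passed, apart from Socs3 with the covariate (-0.21). With that covariate the log2 fold changes were -0.23 for Socs2, 0.047 for Stat5a, 0.047 for Stat3 and -0.36 for Il6st. Without PBS 3 and PBS 5 they were 0.16 for Socs1, 0.065 for Stat3, -0.057 for Il6st, -0.0026 for Osmr and 0.055 for the Osmr to Il6st ratio. Stat3 had 0.0025 with TMM scaling, 0.025 with array weights and 0.022 in the block by title number, where the Osmr to Il6st ratio had 0.0059. With each mouse left out, Stat3 ran from -0.044 to 0.041, Stat5b from -0.019 to 0.069, Il6st from -0.012 to 0.15, Osmr from -0.0045 to 0.087, the Cish to STAT5 ratio from -0.15 to 0.028 and the Osmr to Il6st ratio from -0.11 to 0.040. Pseudocounts of 0.5 and 5, the mean filter, TMM scaling and quantile normalization changed no call of a member. The causes were not tested. The edgeR and DESeq2 tests on recovered reads were planned and not run.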
